A study of Mus musculus with 16 samples.

Results

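The 8 genes described here are the Taar7 and Taar8 paralogs of the mouse trace amine-associated receptors: Taar7a, Taar7b, Taar7d, Taar7e, Taar7f, Taar8a, Taar8b and Taar8c. They were taken by gene symbol from the array annotation, which gave each of them 1 probe set, and are 8 of 19505 genes measured. The annotation also listed 7 other trace amine receptors. Samples were sorted cells of the olfactory mucosa of S100a5-tauGFP reporter mice on a C57BL/6 background, of both sexes and aged 7 to 12 weeks. The reporter follows S100a5, which binds calcium and is raised by activity in olfactory sensory neurons, so it reads out activity only as far as that gene does. After 26 hours in a clean air chamber, mice received 10 second pulses of bourgeonal, an aromatic aldehyde, or of filtered air as vehicle, every 20 minutes up to hour 40. Cells of 3 mice were pooled, which gave 4 odor pools and 4 vehicle pools, each with a GFP- and a GFP+ library by title, or 4 groups of 4 Clariom S arrays.

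The cell type field names the opposite gate from the title in every sample. Libraries are therefore called titled GFP- or titled GFP+, and each gate difference is the titled GFP- minus the titled GFP+ log2 level of a pool. In 8 of 8 pools the S100a5 level was higher on the side titled GFP-, by 0.65 to 1.46 on the log2 scale, which goes against the titles. Omp, which marks mature olfactory sensory neurons, had levels of 18.63 to 18.97 in all 16 libraries, near the top of the array's range (highest values 19.38 to 19.59). In both treatments, 0 of 5 mature neuron markers passed for a gate difference in limma (1 of 5 at an unadjusted p under 0.05), at a threshold of 0.05 on the p adjusted over all genes. Over all genes 18.1% passed in odor and 16.2% in vehicle pools. The 95th percentile of 321 vomeronasal receptor genes served as background and lay at 4.29 to 4.97.

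Trace amine receptors are G protein-coupled receptors of olfactory sensory neurons that detect volatile amines. A neuron typically expresses a single receptor gene, and trace amine receptor neurons form a small population apart from those that use odorant receptors. Taar7 and Taar8 are subfamilies that were duplicated in rodents. Mouse Taar7f is known to respond to N-methylpiperidine; no amine ligand is given here for the others.

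The genes lie side by side in the trace amine receptor cluster of chromosome 10, in the order Taar7a, Taar7b, Taar7d, Taar7e, Taar7f, Taar8a, Taar8b and Taar8c, between Taar6 and Taar9. RefSeq start windows (GRCm38.p6, 250 bases before and 50 after the annotated start) were found for 6 of the 8 genes, and in 6 of 6 the annotated start is an ATG. The first 50 coding bases are shown because they make visible how alike the Taar7 paralogs are. Capitals mark the bases of the other Taar7 genes that differ from Taar7b.
Taar7a (chr10:23993432-23993481, minus strand): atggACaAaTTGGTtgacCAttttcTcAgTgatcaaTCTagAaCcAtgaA
Taar7b (chr10:23999939-23999988, plus strand): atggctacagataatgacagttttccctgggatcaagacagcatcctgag
Taar7d (chr10:24027222-24027271, plus strand): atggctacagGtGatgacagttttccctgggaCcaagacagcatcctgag
Taar7e (chr10:24037614-24037663, plus strand): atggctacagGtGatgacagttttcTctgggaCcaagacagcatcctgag
Taar7f (chr10:24049510-24049559, plus strand): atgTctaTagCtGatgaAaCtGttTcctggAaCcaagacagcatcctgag
Taar8b, shown as the only Taar8 gene with a window and with no base marked (chr10:24092245-24092294, minus strand): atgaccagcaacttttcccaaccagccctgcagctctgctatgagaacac

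Among the 6 genes with windows, Taar7d and Taar7e were the most alike pair over these bases, with 49 of 50 bases in common here and 83.9% identity over the 250 bases upstream. Taar7b shared 47 of 50 bases with Taar7d and 46 with Taar7e, whereas Taar7a shared 25 to 31 bases with the other Taar7 genes. Upstream, Taar7b had 56.4% identity with Taar7d and 54.2% with Taar7e, and Taar8b had 47.4% to 51.8% with the Taar7 genes. Whether a probe set of such a gene also binds transcripts of its neighbours was not tested, since probe sequences were not used here.

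Taar7b and Taar7e were higher in the libraries titled GFP-, in odor and in vehicle pools alike. Taar7b had levels of 11.39, 10.71, 11.32 and 10.79 in odor pools 1 to 4 in the libraries titled GFP-, against 10.57, 9.03, 9.07 and 8.15 in those titled GFP+. In vehicle pools 1 to 4 Taar7b had 11.35, 10.77, 10.35 and 10.52 in the libraries titled GFP-, against 9.98, 9.50, 9.12 and 8.46 in those titled GFP+. The gates did not overlap in either treatment, and the spread was widest in the odor libraries titled GFP+. How many of all genes show gates that do not overlap was not determined, here or for the genes below. The gate difference was 1.85 ± 0.26 on the log2 scale (SE, n = 4 pools) in odor pools (limma adjusted p = 0.000506) and 1.48 ± 0.26 in vehicle pools (adjusted p = 0.00259). Here and for the genes below, this SE is limma's and rests on a spread shared by all 8 pools. It is therefore the same in odor and vehicle pools and does not show the spread of the 4 pools of a treatment.

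Taar7e had levels of 9.39, 9.73, 9.39 and 9.98 in the odor libraries titled GFP-, against 7.91, 7.90, 7.98 and 8.36 in the odor libraries titled GFP+. The vehicle libraries titled GFP- had 9.48, 9.65, 8.94 and 10.19, against 8.35, 8.29, 7.86 and 8.29 in those titled GFP+. For Taar7e no library titled GFP+ reached the level of any library titled GFP-, across treatments as well. For Taar7b this held only within each treatment. The gate difference was 1.58 ± 0.15 (SE, n = 4 pools) in odor pools (limma adjusted p = 3.27e-05) and 1.37 ± 0.15 in vehicle pools (adjusted p = 0.000106).

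Taar7a, Taar7d and Taar7f went the other way and were lower in the libraries titled GFP-. Taar7f had levels of 7.32, 7.19, 7.81 and 7.18 in the odor libraries titled GFP-, against 8.62, 8.96, 8.90 and 8.10 in the odor libraries titled GFP+. With vehicle, Taar7f had 6.47, 7.61, 8.24 and 6.87 in the libraries titled GFP-, against 9.02, 9.11, 9.10 and 8.68 in those titled GFP+. The gates did not overlap in either treatment. Its gate difference was -1.27 ± 0.24 (SE, n = 4 pools) in odor pools (limma adjusted p = 0.00364) and -1.68 ± 0.24 in vehicle pools (adjusted p = 0.000577).

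Taar7a had levels of 6.38, 5.40, 7.34 and 6.47 in the odor libraries titled GFP-, against 7.53, 7.53, 8.43 and 6.96 in the odor libraries titled GFP+. The vehicle libraries titled GFP- had 5.18, 6.61, 7.05 and 5.81, against 7.67, 7.38, 7.94 and 8.32 in those titled GFP+. The gates overlapped in odor pools, where the library titled GFP- of pool 3 was above the library titled GFP+ of pool 4, and did not overlap in vehicle pools. The gate difference was -1.21 ± 0.34 (SE, n = 4 pools) in odor pools (limma adjusted p = 0.0305) and -1.66 ± 0.34 in vehicle pools (adjusted p = 0.00623). The odor call did not hold without the pool as a block (limma adjusted p = 0.0564) or without odor pool 1 (0.0796), 2 (0.144) or 3 (0.0802). Taar7a came close to background in the libraries titled GFP- of vehicle pool 1 (5.18 against 4.93) and odor pool 2 (5.40 against 4.69). The gate differences there were -2.49 and -2.13. The part of the background in these sizes was not tested.

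Taar7d had levels of 9.29, 8.17, 9.15 and 8.69 in the odor libraries titled GFP-, against 9.72, 9.98, 9.91 and 9.81 in the odor libraries titled GFP+. With vehicle, Taar7d had 8.60, 8.86, 9.86 and 9.13 in the libraries titled GFP-, against 9.97, 10.24, 10.19 and 9.68 in those titled GFP+. The odor groups did not overlap and the vehicle groups did, through the library titled GFP- of vehicle pool 3. This was the smallest gate difference of the Taar7 genes, at -1.03 ± 0.24 (SE, n = 4 pools) in odor pools (limma adjusted p = 0.0132) and -0.90 ± 0.24 in vehicle pools (adjusted p = 0.0278). The call was lost in odor pools without odor pool 2 (limma adjusted p = 0.068). In vehicle pools it was lost without vehicle pool 1 (0.116) or 2 (0.127), or with each library centred on its median (0.0652).

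**Figure D1:**
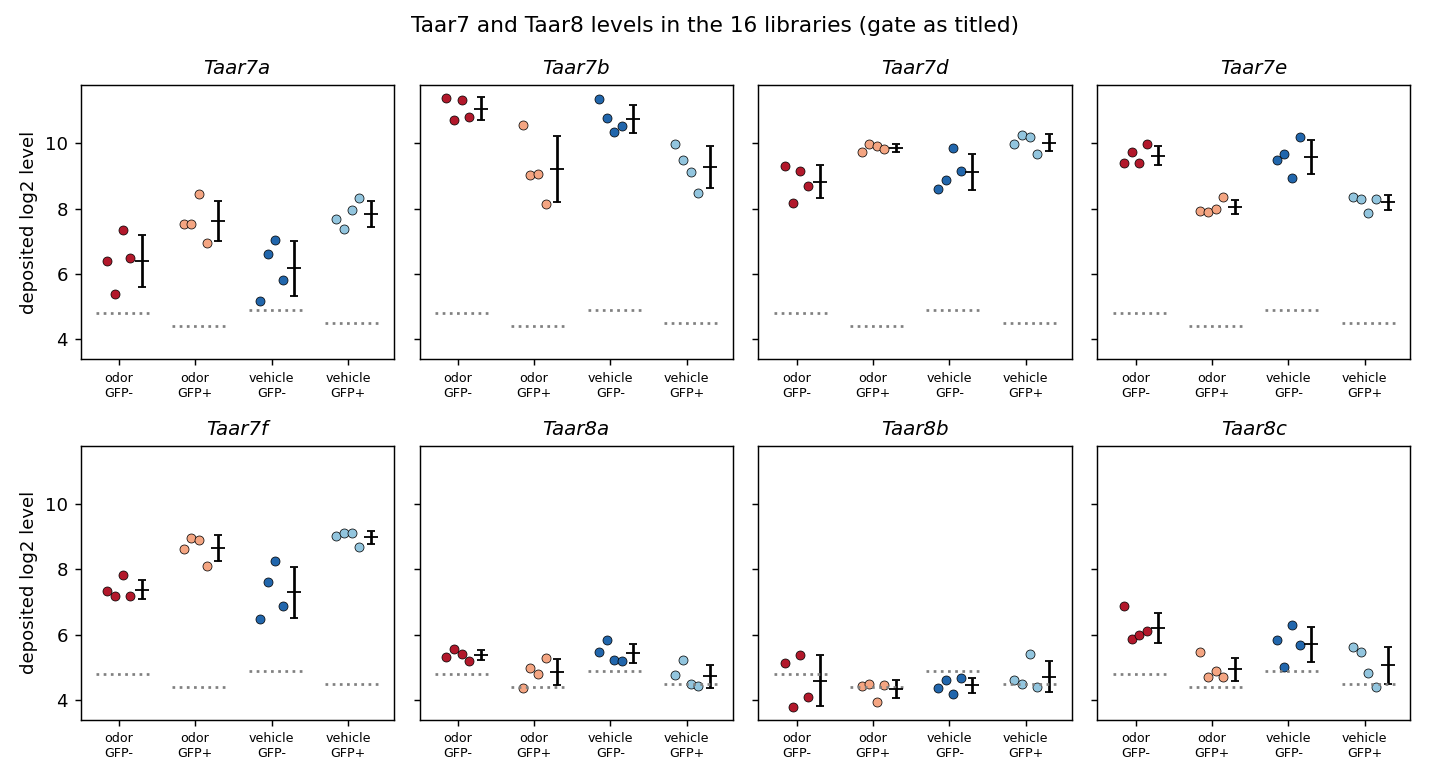
Deposited log2 level (y axis) of each of the 8 genes in the 4 odor libraries titled GFP-, the 4 odor libraries titled GFP+ and the same groups of vehicle libraries (x axis). Points are libraries in pool order, black bars are the mean and SD of 4 libraries, and dotted lines are the mean background of the group. The Taar7 genes lie above background in all libraries. Taar7b and Taar7e are higher in the libraries titled GFP-, and the other Taar7 genes are higher in those titled GFP+.

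All 3 Taar8 genes had low levels, with Taar8a and Taar8b near the background. Only Taar8c of the 3 was above it in all 16 libraries. Taar8c was only just above background in the library titled GFP- of vehicle pool 2 (4.997 against 4.971). The same held in the library titled GFP+ of vehicle pool 4 (4.389 against 4.358). In odor libraries titled GFP- its mean was 6.21, against a mean background of 4.81. In those titled GFP+ it was 4.93 against 4.40. With vehicle the means were 5.71 against 4.89 in libraries titled GFP- and 5.07 against 4.50 in those titled GFP+. Taar8c had levels of 6.89, 5.87, 5.97 and 6.12 in the odor libraries titled GFP-, against 5.46, 4.70, 4.88 and 4.69 in the odor libraries titled GFP+. Its vehicle levels were 5.84, 4.997, 6.31 and 5.68 in the libraries titled GFP-, against 5.61, 5.46, 4.81 and 4.39 in those titled GFP+. It was higher in the libraries titled GFP- of all 4 odor pools and of vehicle pools 1, 3 and 4, and lower in that of vehicle pool 2. Its gate difference had an SD over 4 pools of 0.17 with odor and 0.92 with vehicle. The gate difference was 1.28 ± 0.27 (limma SE, n = 4 pools) in odor pools (limma adjusted p = 0.00801). In vehicle pools it was 0.64 ± 0.27 and did not pass (limma adjusted p = 0.155), and the value depended on single pools. It was 1.01 without vehicle pool 2 (limma adjusted p = 0.0188), 0.35 without vehicle pool 3 (adjusted p = 0.468) and 0.42 without vehicle pool 4 (adjusted p = 0.436).

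Taar8a had levels of 5.31, 5.57, 5.41 and 5.19 in the odor libraries titled GFP-, against 4.35, 4.99, 4.80 and 5.28 in the odor libraries titled GFP+. The vehicle libraries titled GFP- had 5.45, 5.83, 5.23 and 5.20, against 4.76, 5.21, 4.50 and 4.43 in those titled GFP+. The gates overlapped in both treatments, and 14 of the 16 libraries were above background. The gate difference was 0.52 ± 0.16 (limma SE, n = 4 pools) in odor pools (limma adjusted p = 0.048) and 0.71 ± 0.16 in vehicle pools (adjusted p = 0.0115). The SD of this difference over 4 pools was 0.44 with odor and 0.068 with vehicle. The background itself was higher in the libraries titled GFP-, with a mean of 4.81 against 4.40 in odor pools and 4.89 against 4.50 in vehicle pools. The part of the background in the gate differences of Taar8a and Taar8c was not tested. The odor call of Taar8a was lost under 9 of 13 alternatives (highest limma adjusted p = 0.191), and median centring moved the gate difference to 0.87 in odor pools.

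Taar8b lay near background. Its levels were 3.77 to 5.38 in the odor libraries titled GFP- and 3.93 to 4.50 in the odor libraries titled GFP+. They were 4.17 to 4.67 in the vehicle libraries titled GFP- and 4.39 to 5.40 in the vehicle libraries titled GFP+. It was above background in 8 of 16 libraries, with 2 of 4 odor libraries titled GFP-, 2 of 4 odor libraries titled GFP+, 0 of 4 vehicle libraries titled GFP- and 4 of 4 vehicle libraries titled GFP+. Its gate difference did not pass in odor pools (0.26, limma adjusted p = 0.659) or in vehicle pools (-0.26, adjusted p = 0.667).

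In odor pools 7 of the 8 genes passed, 4 higher and 3 lower, where 18.1% of all 19505 genes passed (limma), 7.82% higher and 10.2% lower. Their median gate difference was 0.39, against 0.10 over all genes. In vehicle pools 6 of the 8 passed, 3 higher and 3 lower, where 16.2% of all genes passed, 6.23% higher and 9.95% lower, with a median of 0.19 against 0.09 over all genes. The odor median lies between Taar8b (0.26) and Taar8a (0.52), and the vehicle median between Taar8b (-0.26) and Taar8c (0.64). Since the genes went both ways, these medians do not stand for a shift that the genes share. Without odor pool 2 the count in odor pools was 4 of 8, 3 higher and 1 lower. Centring each library on its median moved the median gate difference of all genes by 0.35 in odor and 0.36 in vehicle pools, and the share of higher genes among those that passed was then 87.3% in both, against 43.3% in odor and 38.5% in vehicle pools as deposited. The genes described here then counted 4 higher and 3 lower in odor pools, and 4 higher and 2 lower in vehicle pools. In bulk samples, fewer neurons that express a receptor and less receptor RNA per neuron cannot be told apart.

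The 5 Taar7 genes held their direction in each pool. In 8 of 8 pools each, Taar7b and Taar7e were higher on the side titled GFP-, and Taar7a, Taar7d and Taar7f were lower in 8 of 8 pools each. The share of all genes that held 1 direction in 8 of 8 pools was not determined. This trait is therefore not shown to be particular to these genes. Taar2, Taar3, Taar4, Taar5 and Taar9 also held 1 direction in 8 of 8 pools, and Taar1 and Taar6 did not. Over the 8 pools the gate difference was 1.67 ± 0.61 (SD) for Taar7b, 1.48 ± 0.30 for Taar7e, -1.44 ± 0.81 for Taar7a, -0.97 ± 0.53 for Taar7d and -1.47 ± 0.56 for Taar7f. Taar7e varied least, between 1.09 and 1.91, and Taar7a most, between -2.51 and -0.48. Taar8c had 0.96 ± 0.70, Taar8a 0.61 ± 0.31 and Taar8b -0.0034 ± 0.84.

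**Figure D2:**
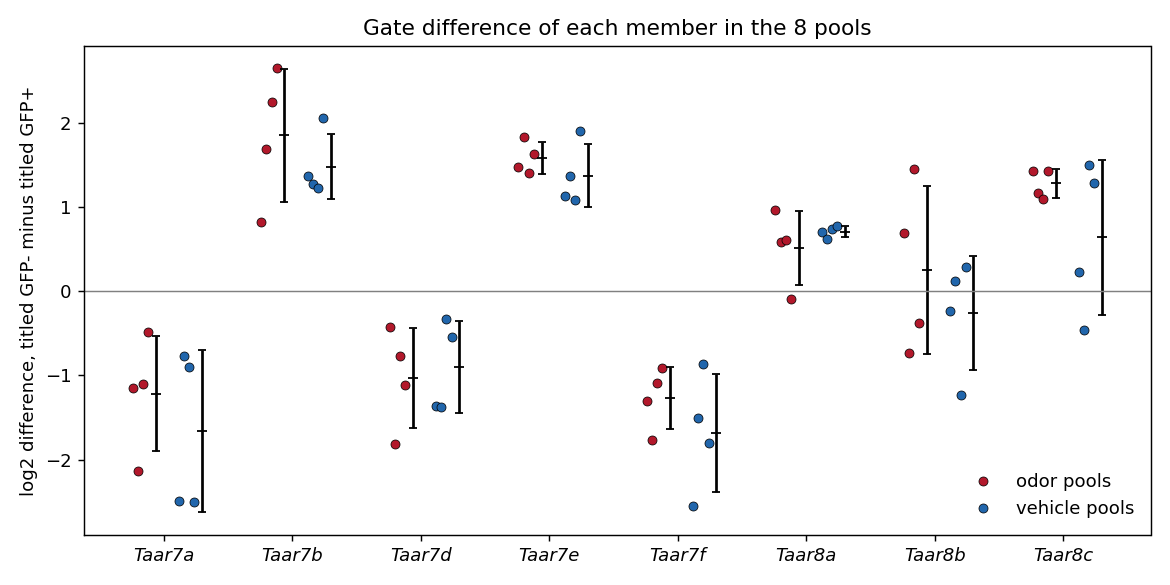
Gate difference (titled GFP- minus titled GFP+, log2, y axis) of each gene (x axis) in the 4 odor pools (red) and the 4 vehicle pools (blue); points are pools and black bars are the mean and SD of 4 pools. All points of Taar7b and Taar7e lie above 0 and all points of Taar7a, Taar7d and Taar7f below it.

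The gate differences of the genes were compared within pools, over all 28 pairs. Of these, 19 differed (exact two-sided sign-flip test over 8 pools, adjusted over 28 pairs). How many pairs among all genes differ in this way was not determined, so the count is not shown to be particular to these genes. For single genes, 18.1% of all passed for a gate difference in odor and 16.2% in vehicle pools (limma). Of the 19, 5 were Taar8b with each Taar7 gene, and since Taar8b was above background in 8 of 16 libraries its side of these pairs is not a measured difference; among the 21 pairs without it, 14 passed. Taar7d and Taar7e, the most similar of the 15 pairs with start windows over those windows, differed by -2.44 ± 0.66 (SD, n = 8 pools), in the same direction in 8 of 8 pools (exact sign-flip p = 0.00781, the smallest that 8 pools allow; adjusted p = 0.0156). Taar7b and Taar7d differed by 2.63 ± 0.87 (SD), also in 8 of 8 pools (adjusted p = 0.0156 by the same exact test). All 6 pairs of Taar7b or Taar7e with Taar7a, Taar7d or Taar7f passed at this p. These 2 sets were formed by the direction of the same gate differences, which held in 8 of 8 pools for each gene. The exact p of these 6 pairs was therefore fixed by those directions and adds no support to them. Taar7d with Taar7e and Taar7b with Taar7d are among the 6. The pairs of Taar7a, Taar7d or Taar7f with Taar8a or Taar8c largely restate directions as well. Those Taar7 genes were lower in 8 of 8 pools, and Taar8a and Taar8c were higher in 7 of 8 pools each. Taar8a was also near background. The 14 pairs that passed without Taar8b are therefore not 14 separate results.

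The other 9 pairs did not pass. They were Taar7b with Taar7e, the 3 pairs among Taar7a, Taar7d and Taar7f, the 3 pairs among the Taar8 genes, and Taar8c with Taar7b or Taar7e. Taar7b and Taar7e differed by 0.19 (95% interval -0.26 to 0.64), and Taar7a and Taar7f by 0.03 (-0.34 to 0.40). For Taar7d and Taar7f the interval was 0.04 to 0.97, with an exact sign-flip adjusted p = 0.0657, so these data leave room for a difference of that size. Taar8b, near background, and Taar8c differed by -0.96 (-1.92 to -0.01; exact sign-flip adjusted p = 0.0666).

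Along the chromosome, the direction changed at each step through the Taar7 genes: lower for Taar7a, higher for Taar7b, lower for Taar7d, higher for Taar7e and lower for Taar7f. The cluster holds 3 annotated pseudogenes, which were not analysed here. Of the 7 other trace amine receptors, 4 were higher and 1 lower in each treatment. Taar4, a receptor for 2-phenylethylamine, was higher by 2.86 in odor pools and 2.84 in vehicle pools, and Taar9 by 2.66 and 2.89. Taar3, a receptor for isoamylamine, was higher by 1.92 and 2.58. Taar5, a receptor for trimethylamine, was at or below background in all 8 libraries titled GFP+ and above it in 2 of 4 libraries titled GFP- of each treatment. It passed as higher, but no size is given for it. Taar2 was lower, by -2.94 in odor pools and -2.93 in vehicle pools.

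Taar6, the neighbour of Taar7a, did not pass (-0.63 in odor pools and -0.84 in vehicle pools), nor did Taar1 (0.23 and 0.39), which was below background in all 16 libraries. The gate differences of Taar7b and Taar7e were thus smaller than those of Taar4 and Taar9 in each treatment by point estimate; these differences were not tested. Outside the cluster, the measured neighbours Vnn3 and Vnn1 were below background in all 16 libraries. Stx7, a syntaxin of endosomes, had gate differences of 0.18 and -0.06 and did not pass. Moxd1, a monooxygenase-like protein, was lower by -1.70 in odor pools and -1.44 in vehicle pools (limma adjusted p = 6.22e-06 and 2.37e-05).

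**Figure D3:**
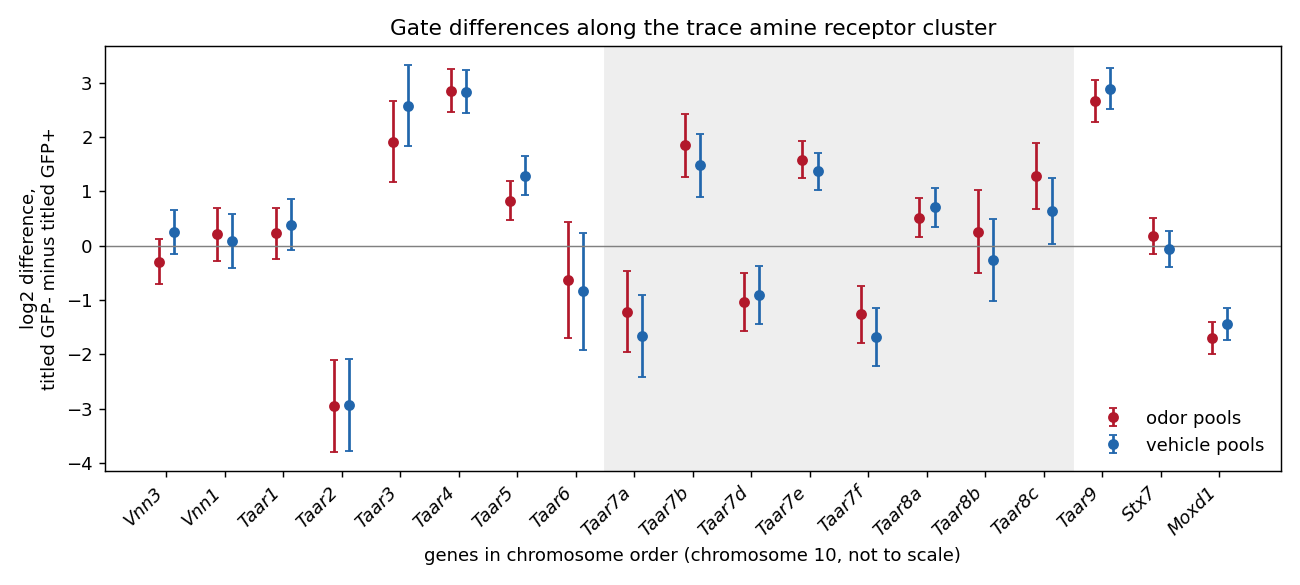
Gate difference (titled GFP- minus titled GFP+, log2, y axis) with its 95% interval from limma for the 15 trace amine receptors and 2 measured neighbours on each side, in chromosome order (x axis, not to scale), in odor pools (red) and vehicle pools (blue). The shaded band holds the Taar7 and Taar8 genes, where Taar7b, at 1.85 and 1.48, stands between Taar7a and Taar7d, both below 0.

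Markers of other cells moved with the gates. All 5 measured myeloid markers were lower in the libraries titled GFP- in both treatments, with mean levels over the list of 4.28 to 5.61 in the libraries titled GFP- and 13.4 to 14.8 in those titled GFP+. All 3 immature neuron markers were lower too (8.62 to 9.11 in libraries titled GFP- and 11.3 to 11.8 in those titled GFP+). So were all 3 microvillar markers (4.39 to 5.34 and 7.87 to 10.1). Both measured progenitor markers were lower (3.60 to 3.92 and 6.58 to 7.56), and at or below background in every library titled GFP-. Of 4 sustentacular markers, 4 were lower in odor pools and 3 in vehicle pools (8.01 to 9.89 and 10.2 to 11.1). The part of these cells in the Taar7 and Taar8 gate differences was not tested.

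Few genes of olfactory signalling and zonal position passed. Of 8 transduction genes, 1 was higher in each treatment and 7 did not pass; Gnal, the olfactory G protein subunit, had gate differences of 0.02 in odor pools and 0.02 in vehicle pools, and Adcy3, the adenylyl cyclase it activates, of 0.33 and 0.28. Of 3 genes of the dorsal zone of the epithelium, 0 passed in limma in either treatment (at an unadjusted p under 0.05, 1 of 3 in odor and 0 of 3 in vehicle pools), with Nqo1 at 0.05 and 0.02. Of the 2 measured ventral zone genes 0 passed in limma as well, and 0 had an unadjusted p under 0.05.

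The question of the odor comparison was whether bourgeonal moves a receptor between the gates. None of the 8 Taar7 and Taar8 genes passed in limma for the difference between their odor and vehicle gate differences (odor minus vehicle), with 0 of 8 at an unadjusted p under 0.05. Over all 19505 genes 0% passed, with 1109 at an unadjusted p under 0.05. Values of the 8 genes ran from -0.19 for Taar8a to 0.64 for Taar8c, with a median of 0.39 against 0.02 over all genes. For Taar7b the difference was 0.37 (95% interval -0.45 to 1.19) and for Taar7e 0.21 (-0.27 to 0.69). For Taar7a it was 0.45 (-0.61 to 1.51), for Taar7f 0.41 (-0.34 to 1.16) and for Taar7d -0.13 (-0.89 to 0.63). Exact two-sided permutation tests of the 4 odor against the 4 vehicle pool differences gave unadjusted p from 0.343 to 0.771 for the 8 genes, where 0.0286 is the smallest that 70 assignments allow. Changes within these intervals were not excluded with 4 pools per treatment.

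No change with odor passed within a gate either. In the libraries titled GFP-, 0 of 8 genes passed in limma (0 of 8 at an unadjusted p under 0.05), where 0% of all genes did. The changes ran from -0.29 for Taar7d to 0.51 for Taar8c (95% interval -0.14 to 1.15). In the libraries titled GFP+, 0 of 8 passed (0 of 8 at an unadjusted p under 0.05), where 0.0103% of all genes did, with changes from -0.38 for Taar8b to 0.13 for Taar8a. With the pool number as a block, 0 of 8 passed as well (0 of 8 at an unadjusted p under 0.05). Taar7f was lower with odor in 4 of 4 same-numbered pairs of libraries titled GFP+, by -0.33 ± 0.15 (SE) in that blocked fit, and did not pass (limma adjusted p = 0.819). As group means, Taar7b stood at 11.05 ± 0.35 in the odor and 10.74 ± 0.44 in the vehicle libraries titled GFP- (SD, n = 4 each), and at 9.20 ± 1.00 and 9.26 ± 0.64 in those titled GFP+. The order of its 4 groups was thus set by the gate, and groups of the same gate differed by less than their spread. The same held for Taar7e, at 9.62 ± 0.29 and 9.57 ± 0.52 in the odor and vehicle libraries titled GFP-, and at 8.04 ± 0.21 and 8.20 ± 0.23 in those titled GFP+.

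**Figure D4:**
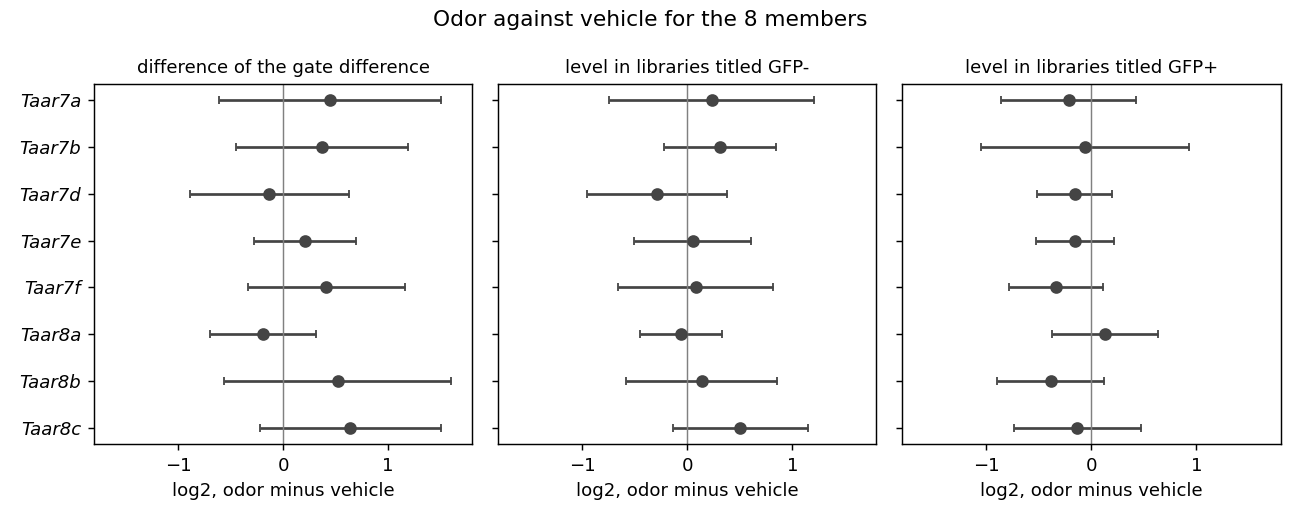
Odor minus vehicle (log2, x axis) with 95% intervals from limma for each of the 8 genes (y axis): the difference of the gate difference (left), the level in libraries titled GFP- (middle) and the level in libraries titled GFP+ (right). The middle and right panels come from fits without the pool number as a block. Every interval includes 0.

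Over the 16 libraries, the genes with the profile most like that of Taar7b were Olfr1160, an odorant receptor, at a Pearson correlation of 0.94, Taar9 (0.93) and Olfr1246 (0.91). For Taar7e they were Pcdh7, a protocadherin (0.95), Olfr60 (0.95) and Olfr281 (0.95). For Taar7f they were Rpl5, a ribosomal protein (0.95), Rsrp1 (0.94) and Olfr1271 (0.94). For Taar7a they were Runx3, a transcription factor (0.91), Olfr1502 (0.89) and Gm3317 (0.88), and for Taar7d Olfr250 (0.91), Siglecf, a lectin of eosinophils (0.91), and Olfr1019 (0.91). Among the other trace amine receptors, Taar2 was the nearest to Taar7a, Taar7d and Taar7f (0.84, 0.89 and 0.92), Taar9 to Taar7b and Taar4 to Taar7e (0.86). For the dim Taar8c the nearest were Pramel31 (0.92), Cops6 (0.89) and Pcsk1 (0.88), and for Taar8a Aplp2 (0.86), Slc25a25 (0.86) and Cts6 (0.85). For Taar8b they were Mfsd2b (0.85), Psg26 (0.82) and Zdhhc25 (0.82). The libraries share gates and pools, so these correlations are descriptions.

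The start windows were also searched, on both strands, for TAATNA, a core bound by homeodomain proteins, and CCCNNGGG, a core bound by the olfactory Ebf factors. TAATNA was found in 5 of the 6 windows (Taar7a, Taar7b, Taar7e, Taar7f and Taar8b, but not Taar7d) and in 26.5% of 32851 mouse windows. CCCNNGGG was in 0 of the 6 windows and in 13.7% of all windows. A match is a description only.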

How the data were processed

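Sorted olfactory mucosa cells were hybridised to 16 one-colour Clariom S arrays. The authors deposited log2 expression values; per the submitters' processing notes, they used Affymetrix Expression Console. No version, summarisation method or genome build is given in the sources used here. Of 28846 probe sets, 94 spike-in or background controls and 6546 neg or pos controls were left out, and 2634 named no gene. Of 19572 that named 1 gene, the brightest per gene was kept, leaving 19505 genes. All Entrez IDs (100%) matched the GRCm38.p6 gene table, used for gene order; start windows are RefSeq's. Background was the 95th percentile of 321 vomeronasal receptor genes in each library. Precision is limited by the number of arrays, and p-values measure the spread between these pools.

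Gate differences, and the odor minus vehicle difference between them, came from 1 fit with limma 3.58.1 (R 4.3.3) to the 16 libraries. The pool was a fixed block, because 24 mice at 3 per library imply that both gates of a pool hold the same mice. Deviations of a pool's gates from their group means had correlations of 0.135 to 0.287 in odor and 0.0979 to 0.201 in vehicle pools. Within each gate, odor and vehicle were compared on 8 libraries with no block. A fit with the pool number as a block was an alternative. In both gates, the deviations of each odor library from its group mean correlated best with those of the vehicle library of the same number. Same-numbered odor and vehicle libraries correlated at 0.157 to 0.210 among those titled GFP+, where every pair was over 0.1 and the blocked result is also given, and at 0.0879 to 0.161 among those titled GFP-, where not every pair was. Tests were two-sided and Benjamini-Hochberg adjusted over 19505 genes, with a threshold of 0.05. Pairs of the 8 genes were compared by exact sign-flip tests over pools, with normal-theory intervals as descriptions. The fits were also run on simulated data with independent noise in each library. Those data held no pool effect, so that run did not test the pool as a block. Named genes were the 8 genes, the other trace amine receptors, 2 measured neighbours on each side, short marker lists, and the 3 genes most correlated with each. These genes and lists were chosen with earlier results of these data known. Alternatives were the block, median centring, a filter on dim genes, averaging probe sets, a variance trend and leaving out each pool.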

Additional observations from a re-analysis of the deposited data

Results flagged for a closer look

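In groups of 4 values, 3 of 48 had a value far from the other 3, measured by its gap to the nearest as a share of the whole range; chance flags about 1 in 20. The gate difference of Taar7b in vehicle pool 4 was 2.05, against 1.23 to 1.37 in the other vehicle pools. The level of Taar7e in the vehicle library titled GFP+ of pool 3 was 7.86, against 8.29 to 8.35 in the other 3. The level of Taar8b in the odor library titled GFP+ of pool 3 was 3.93, against 4.43 to 4.50 in the other 3, all near background.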

How the results depend on the processing

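Taar7b, Taar7e and Taar7f passed for the gate difference in both treatments under all 13 alternatives. The 13 are not independent checks. Averaging probe sets left the values of the 8 genes as they were, since each had 1 probe set. Leaving out a pool of the other treatment left the gate difference as it was and could change only its SE and p. Counts of the 8 genes that passed ran from 4 to 7 in odor pools and 5 to 6 in vehicle pools when 1 pool was left out, and pairs that differed from 14 to 20; the low odor count of 4 came without odor pool 2. Without the replicate block, 5 genes passed in odor pools (Taar7a was lost, and Taar8a at a limma adjusted p of 0.115) and 6 in vehicle pools. For odor within each gate the block left 0 of 8, and changed no other call; over all genes 1 passed with the block in libraries titled GFP+, against 2 without, and 0 to 2 when a pool was left out. Median centring raised the genes that passed to 12174 in odor and 12023 in vehicle pools, against 3521 and 3156, and with it Taar8c passed in vehicle pools, Taar7d did not, and Taar8b was 0.092 there. Leaving out dim genes left 0 of all genes with an odor change in libraries titled GFP+, and a variance trend gave 1 in those titled GFP-, against 0. The values that changed sign had not passed, and no cause was tested. Leaving out 1 pool, the Taar8b gate difference ran from -0.14 to 0.59 in odor and -0.45 to 0.057 in vehicle pools. The odor minus vehicle difference ran from -0.33 to 0.13 for Taar7d and -0.34 to 0.013 for Taar8a. In libraries titled GFP-, odor minus vehicle ran from -0.094 to 0.57 for Taar7a, -0.16 to 0.26 for Taar7e, -0.20 to 0.39 for Taar7f, -0.13 to 0.074 for Taar8a and -0.13 to 0.41 for Taar8b. In libraries titled GFP+ it ran from -0.49 to 0.0034 for Taar7a, -0.52 to 0.29 for Taar7b, -0.0098 to 0.30 for Taar8a and -0.36 to 0.047 for Taar8c. Signal over background limits Taar8a and Taar8b most.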

Other observations

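Among the libraries titled GFP+, Taar7b was highest in the pool numbered 1 and lowest in the pool numbered 4 in both treatments, at 10.57 and 8.15 with odor and at 9.98 and 8.46 with vehicle. What a number shared by odor and vehicle pools means is not stated in the labels. Taar7a and Taar7f varied together over the 16 libraries, with a Pearson correlation of 0.90, and Taar7e ran opposite to Taar7f, at -0.90. Taar7b correlated more with Taar8c (0.83) than with Taar7e (0.72). These correlations include the difference between the gates.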
